A study of Mus musculus with 4 samples.

Results

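The Arp2/3 complex nucleates branched actin filaments, and its 9 subunit genes in the deposited table were Actr2, Actr3, Arpc1a, Arpc1b, Arpc2, Arpc3, Arpc4, Arpc5 and Arpc5l. They were taken by gene symbol from the 20207 genes of the table, and all 9 were found and passed the filter on low values. They were measured in sorted LSK cells of the mouse fetal liver, which lack lineage markers, carry Sca-1 and Kit, and include blood stem cells and multipotent progenitors. One group of embryos was wild-type and the other Brpf1-null, both at stage E14.5. Brpf1 encodes a chromatin reader that scaffolds histone acetyltransferase complexes. Per the labels, either genotype has 2 samples, with some 10000 cells pooled from 4 embryos in each, and no strain or treatment is named. Sequencing of pair 1 took 2 lanes and that of pair 2 took 6 lanes, at 2 companies in all. How the Brpf1-null allele was made, and in which cells it acts, is not given in the sources used here. Both pairs had tables with the same values for all 20207 genes and both genotypes, so they were read as 1 library per genotype (n = 1). Which pair the values came from, or whether they merge both pairs, cannot be told. There is therefore no replicate check, no p-value and no spread between pools for any value below.

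Levels are in RPKM, reads scaled to gene length and to library size, as the authors deposited them. The gene lengths they divided by are not given, nor how reads with several matches were counted. Comparisons of level between different genes, paralogs included, are therefore approximate. The spacing of low values gave about 23620000 reads for the wild-type library and 22220000 for the Brpf1-null library. Each fold is followed in brackets by a 95% interval (exact Clopper-Pearson) made from estimated reads. It covers counting error only, it treats reads as independent molecules, and it says nothing of the spread between embryos. A log2 change is log2(RPKM + 1) in the Brpf1-null library minus that in the wild-type library, and a gene is counted as higher or lower when this passes 1.5-fold. The targeted gene, Brpf1, had 2.59 RPKM in wild-type and 2.15 RPKM in Brpf1-null cells (1.201-fold lower, 0.998 to 1.45, some 268 and 210 reads). Since the deleted part of Brpf1 is unknown here, its summed level checks little about the labels. In bulk RNA, fewer cells of a type and less RNA per cell cannot be told apart.

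As background, the complex joins the actin-related proteins ARP2 (Actr2) and ARP3 (Actr3), which act as the first subunits of a new filament, to 5 supporting subunits. ARPC2 and ARPC4 form the core that binds the side of an existing filament, ARPC3 holds ARP3, and ARPC1 and ARPC5 sit beside ARP2. Mammals have paired genes for 2 of these places, Arpc1a or Arpc1b and Arpc5 or Arpc5l, so complexes of different composition exist. WASP and WAVE proteins switch the complex on. In blood cells, branched actin drives migration, phagocytosis and the immune synapse, and ARPC1B is the ARPC1 form that predominates there.

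Arpc1b stood apart from every other subunit gene. Its level was 89.5 RPKM in wild-type and 424 RPKM in Brpf1-null cells, 4.74-fold higher (4.555 to 4.94). The neighbouring paralog Arpc1a was at 37.2 and 43.5 RPKM, 1.17-fold higher (1.09 to 1.26). The pair lies side by side on chromosome 5, in the same direction, and the stretches just before their starts are shown because the genes share a function and a location but not the size of the difference. These are the 250 bases before the RefSeq start, on the + strand of GRCm38.p6, at chr5:145083619-145083868 for Arpc1a and chr5:145114006-145114255 for Arpc1b. Capitals mark matches, on either strand, to the GC box GGGCGG or the ETS motif CCGGAAG.
Arpc1a: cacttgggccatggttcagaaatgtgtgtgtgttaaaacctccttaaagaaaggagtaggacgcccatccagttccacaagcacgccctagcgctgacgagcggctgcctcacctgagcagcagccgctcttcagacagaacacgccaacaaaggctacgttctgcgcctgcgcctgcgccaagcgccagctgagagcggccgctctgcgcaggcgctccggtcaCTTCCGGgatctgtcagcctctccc
Arpc1b: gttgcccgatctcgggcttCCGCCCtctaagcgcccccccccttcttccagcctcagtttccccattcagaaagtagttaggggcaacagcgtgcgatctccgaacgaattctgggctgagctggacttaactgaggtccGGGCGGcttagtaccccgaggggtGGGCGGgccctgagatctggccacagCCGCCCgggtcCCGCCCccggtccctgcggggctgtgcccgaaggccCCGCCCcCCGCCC

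The Arpc1b stretch held 7 matches to the GC box and 0 to the ETS motif, and the Arpc1a stretch 0 and 1. None of these matches overlapped another. Of 27025 mouse promoters of the same length, 32.9% held a GC box and 7.05% the ETS motif. RefSeq promoters were matched for 8 of the 9 subunit genes. Among these 8, the GC box was found for Actr2, Actr3, Arpc1b, Arpc2 and Arpc5, and the ETS motif for Actr2, Actr3, Arpc1a, Arpc3 and Arpc4. The CRE TGACGTCA was in 0 of the 8 and in 1.62% of all promoters. The E-box CACGTG was found for Arpc5 (6.05% of all promoters), and the CArG box for Arpc4 (1.4% of all). A match describes the letters in this window and shows no binding.

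Because the genes were chosen from this same comparison, their differences are described here and not tested. The subunit genes past 1.5-fold were 1 of 9 on the higher side, Arpc1b, and 0 of 9 on the lower side. Of the 9380 genes kept (mean of 1 RPKM or more), 14.1% were higher and 9.42% lower by that measure, 23.5% in either direction. The other 8 subunit genes had log2 changes from −0.50 to 0.57. Arpc4, at 0.57, lay just inside the threshold, and Arpc5, at −0.50, was the nearest on the lower side. The median over the 9 genes was 0.03, against 0.04 over all 9380 genes.

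**Figure D1:**
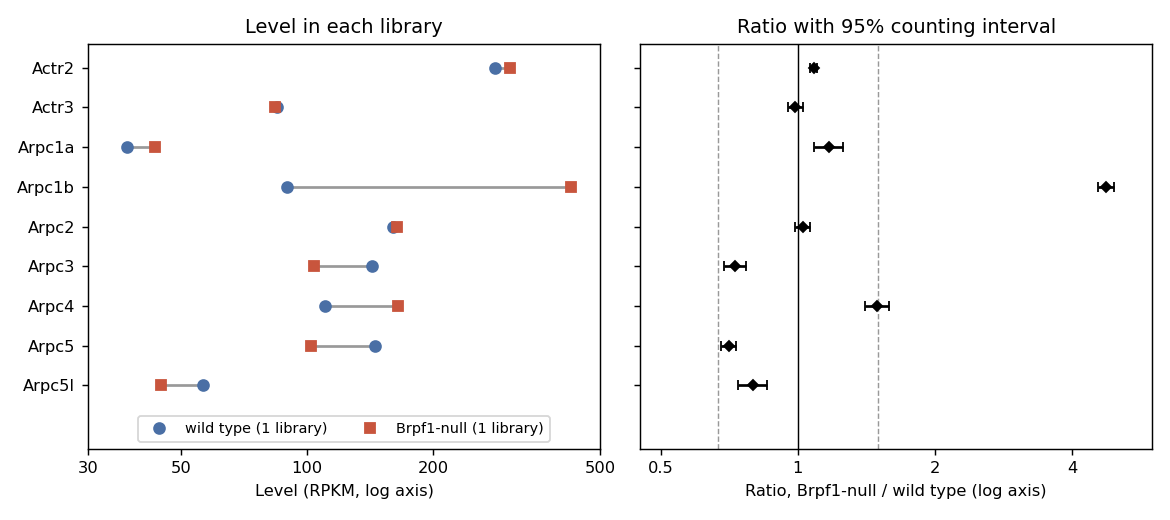
Level of each Arp2/3 subunit gene in the wild-type (circle) and Brpf1-null (square) library in RPKM on a log axis, and the ratio of the libraries with its 95% counting interval; dashed lines mark 1.5-fold either way. Arpc1b, at 89.5 and 424 RPKM, lies far to the right of the other 8 genes, whose ratios run from 0.704 to 1.49.

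The actin-related proteins at the heart of the complex were close to level between the libraries. Actr2 was the most abundant subunit transcript in the wild-type library, at 280 RPKM, against 304 RPKM in Brpf1-null cells, 1.08-fold higher (1.065 to 1.10). Its log2 change of 0.12 was close to 0 when the medians of both libraries were set equal (centring). Actr3 was at 84.9 and 83.8 RPKM, 1.01-fold lower (0.974 to 1.054). Its log2 change of −0.02 became 0.06 with quantile normalization and 0.15 once the trend on GC content was taken out. For Actr3, 50% of the 50-base windows of its transcript also occur in transcripts of other genes, 1214 of 2505 windows in the pseudogene Gm8822 alone. Its level is uncertain for that reason, since it is not stated how the authors counted reads with several matches. Actr3b, a second ARP3 gene outside the 9, was at 0.0247 and 0.210 RPKM, from about 1 and 8 reads, so Actr3 supplied nearly all ARP3 transcript.

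Both genes of the filament-binding core lay within 1.5-fold. Arpc2 was at 160 and 164 RPKM, 1.02-fold higher (0.985 to 1.06), and its log2 change of 0.03 turned to −0.078 after centring. Arpc4 stood at 110 RPKM in wild-type and 164 RPKM in Brpf1-null cells, 1.49-fold higher (1.40 to 1.585). It lies on chromosome 6 near Brpf1, with 3 protein-coding genes, Ogg1, Camk1 and Tada3, between them. Tada3, which encodes a subunit of histone acetyltransferase complexes, was at 12.5 and 16.1 RPKM, and Camk1, a calmodulin-dependent kinase gene, at 2.86 and 4.49 RPKM, both within 1.5-fold on the log2(RPKM + 1) scale. On the other side of Arpc4, Rpusd3 was at 3.47 and 2.87 RPKM, also within 1.5-fold. Arpc4 has RefSeq-linked transcripts of 695 to 2270 bases. The reads behind its interval were estimated with the shortest, and another form would give another interval. Of the 50-base windows of a 1323-base Arpc4 transcript, 18.4% are shared with Ttll3. Ttll3 is a tubulin glycylase gene that overlaps the end of Arpc4 on the same strand. Ttll3 itself was at 0.175 and 0.463 RPKM. With quantile normalization Arpc4 joined Arpc1b past 1.5-fold, which made 2 of 9 genes higher.

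ARPC3 and the ARPC5 pair were lower in the Brpf1-null library, each by less than 1.5-fold. Arpc3, the subunit that bridges to ARP3, was at 143 and 104 RPKM, 1.375-fold lower (1.30 to 1.455). Arpc5 was at 145 and 102 RPKM, 1.42-fold lower (1.37 to 1.475). Its paralog Arpc5l was at 56.4 and 44.9 RPKM, 1.26-fold lower (1.17 to 1.35). All 3 counting intervals exclude 1, and the direction of these 3 genes was the same under each of the scalings tried. After centring, Arpc5 reached −0.61 on the log2 scale and passed 1.5-fold, which made 1 of 9 genes lower. No 50-base window of Arpc3 or Arpc5l and 2.04% of those of Arpc5 occur in other genes.

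Ratios within the 2 paralog pairs are not altered by a single scale factor per library, though quantile normalization can alter them. In the ARPC1 pair, Arpc1b was 2.41 times the level of Arpc1a in the wild-type library and 9.76 times in the Brpf1-null library, so the ratio itself was 4.06 times as large. As a share of the summed RPKM of the pair, Arpc1b made up 70.6% (69.3 to 71.9) in wild-type and 90.7% (90.3 to 91.1) in Brpf1-null cells. In the ARPC5 pair, Arpc5l made up 28.0% (27.0 to 29.1) and 30.5% (29.2 to 31.9), and its ratio to Arpc5 was 1.13 times as large. Brackets here are 95% counting intervals of the share. They leave out doubt about the gene lengths that the authors divided by, so the shares are less certain than the brackets show. The longest open reading frames of Arpc1a and Arpc1b, 1113 and 1119 bases, were identical at 73.9% of 1101 aligned bases, with no identical run longer than 21 bases. Those of Arpc5 and Arpc5l, 456 and 462 bases, were identical at 71.3% of 453 aligned bases, again with a longest run of 21. No aligned stretch of 50 coding bases was thus identical between paralogs.

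Summed over paralogs, the 7 places of the complex ranged 3.30-fold in level in the wild-type library and 5.58-fold in the Brpf1-null library. In the wild-type library the order from high to low was ARP2, ARPC5, ARPC2, ARPC3, ARPC1, ARPC4 and ARP3. ARPC1 had 127 RPKM there, 0.886 times the median place. In the Brpf1-null library it was first, at 468 RPKM, 2.86 times the median place, followed by ARP2, ARPC4, ARPC2, ARPC5, ARPC3 and ARP3. Neighbours in this order such as ARPC4 and ARPC2 in the Brpf1-null library, at 164.2 and 163.5 RPKM, are closer than counting error can separate. Arpc1b alone took 8.1% of the summed RPKM of the 9 genes in wild-type and 29.6% in Brpf1-null cells. The other 8 genes summed to 1016 RPKM in wild-type and 1010 RPKM in Brpf1-null cells, a ratio of 0.994. The complex's transcripts were thus higher in sum, at 1106 and 1434 RPKM, through Arpc1b.

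**Figure D2:**
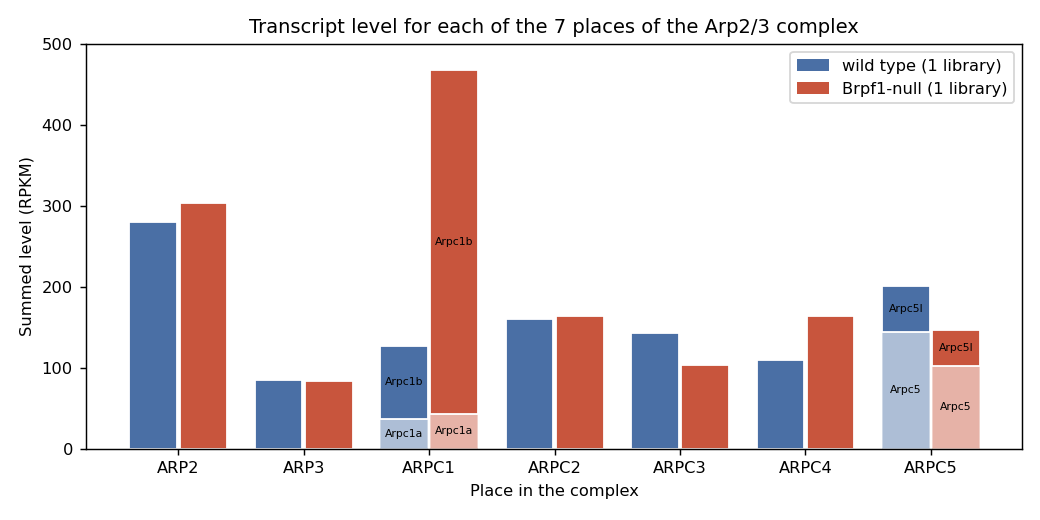
Summed RPKM for each of the 7 places of the complex in the wild-type (blue) and Brpf1-null (red) library, with paralogs stacked and named. The ARPC1 place goes from 127 to 468 RPKM through its Arpc1b part, and the ARPC5 place from 201.2 to 146.8 RPKM with both parts smaller.

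Arpc1b was also extreme among all genes, which is how it came to notice and so is given as a description. Its log2 change of 2.23 was exceeded by 8 of the 9380 kept genes. Among the 1138 genes whose mean reached 50 RPKM, 1 had a higher log2 change. By level, 662 kept genes lay above Arpc1b in the wild-type library and 135 in the Brpf1-null library. In these libraries the log2 change ran with the GC content of transcripts, with medians of −0.16 in the bottom and 0.24 in the top GC decile. Arpc1b, at 52.5% GC, had a higher log2 change than each of the 1027 kept genes within 1 percentage point of its GC content. The median of those genes was 0.11. The GC content of Arpc1b is that of its 3105-base transcript, whereas its reads were estimated with a shorter form. With the GC trend removed on that basis, the log2 change of Arpc1b was 2.17. Among the 9 genes, GC content ran from 40.3% for Actr2 to 53.1% for Arpc4, and removal of the trend gave Actr2 the largest shift, from 0.12 to 0.37. Arpc4 went from 0.57 to 0.49.

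**Figure D3:**
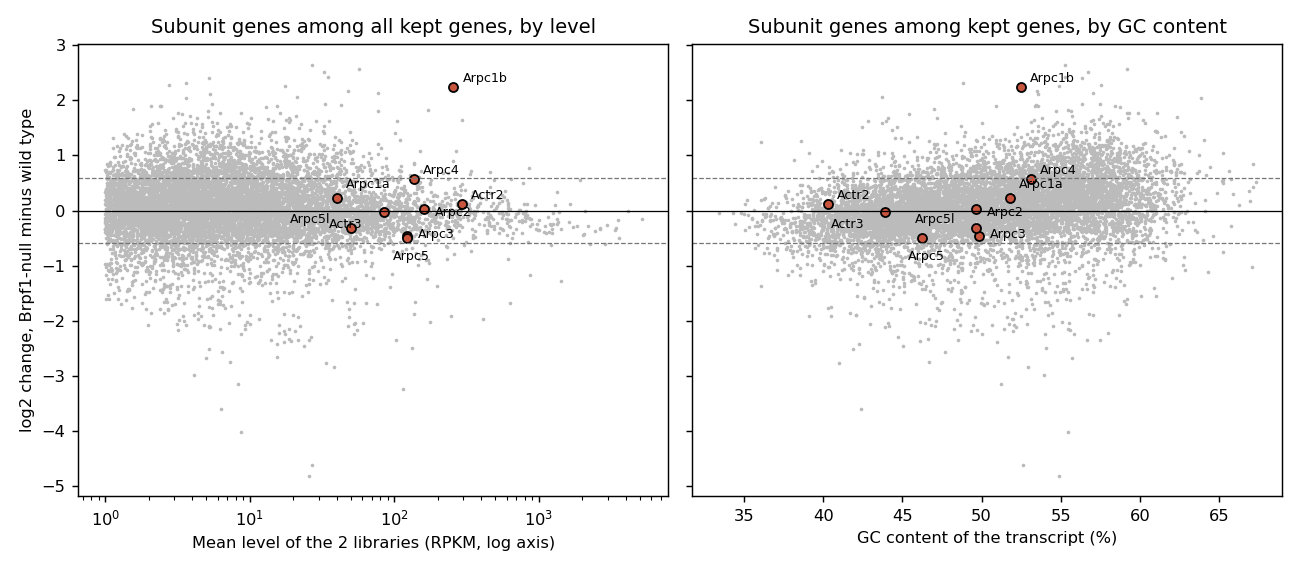
log2 change (Brpf1-null minus wild type) of the 9380 kept genes, in grey, against mean level on a log axis (left) and, for the 9258 with a value, GC content of the transcript in percent (right); the 9 subunit genes are named and dashed lines mark 1.5-fold. Arpc1b, at 2.23, lies above all genes within 1 percentage point of its GC content, which is taken from its 3105-base transcript. The other 8 lie within the dashed lines.

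The reads behind Arpc1b depend on which transcript is meant. GENCODE holds a coding transcript of 1394 bases and one of 3105 bases whose end runs into Pdap1, a gene on the opposite strand, and 28.9% of the longer transcript's 50-base windows are shared with Pdap1. The intervals above use the shorter form, for about 2900 and 13000 reads, and the longer form would give about 6600 and 29000. Without strand, reads of the shared stretch cannot be told apart. Pdap1 was at 14.6 RPKM in both libraries, and the next gene along, the splicing factor gene Bud31, was at 41.7 and 42.2 RPKM. Of the shorter form's windows, 22.5% also occur in the pseudogene Gm5637, which is a processed copy of Arpc1b.

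The 5 kept genes whose pair of levels lay nearest to that of Arpc1b, by Euclidean distance in log2(RPKM + 1) over the 2 libraries, were Eef2, Clic1, Nme1, Cyba and Cops6. Eef2, the translation elongation factor that moves the ribosome along, was at 143 and 449 RPKM (distance 0.676). Clic1, a chloride intracellular channel protein gene, was at 75.1 and 270 RPKM (0.698). Cyba, which encodes a subunit of the phagocyte NADPH oxidase, was at 178 and 332 RPKM (1.04). Nme1, a nucleoside diphosphate kinase gene, and Cops6, of the COP9 signalosome, lay at distances of 0.951 and 1.06. With 1 library per genotype such a likeness rests on 2 values per gene.

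Genes that act with the complex were described from 9 lists of actin regulators with 87 kept genes, of which 18 (20.7%) were higher and 3 (3.45%) lower by 1.5-fold, beside 14.1% and 9.42% of all kept genes. The median log2 change of these 87 genes was 0.19. Among them only Hcls1 had a difference as large as that of Arpc1b. Hcls1, the blood-cell homolog of cortactin, which binds and stabilises Arp2/3 branches, had 10.4 RPKM in wild-type and 59.6 RPKM in Brpf1-null cells, 5.74-fold higher (5.22 to 6.34). The other branch stabilisers differed little, with Cttn (cortactin) at 2.135 and 2.76 RPKM and Dbnl (drebrin-like) at 29.4 and 31.2 RPKM.

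WASP and WAVE activators were higher in 3 and lower in 0 of 12 kept genes, with a median log2 change of 0.11 that came close to 0 after centring. Nckap1l (HEM1), the blood-cell scaffold of the WAVE complex, was at 13.0 and 23.7 RPKM, 1.83-fold higher (1.715 to 1.955). Its paralog Nckap1 was at 0.624 and 0 RPKM (some 66 and 0 reads), lower by 1.5-fold, but it did not pass the filter. Abi3, another WAVE complex subunit, was at 1.995 and 3.97 RPKM, 1.99-fold higher (1.66 to 2.38), and Wipf2, a WASP-binding protein gene, 1.84-fold higher (1.58 to 2.14). Was, which encodes the WASP protein of blood cells, was at 12.2 and 11.1 RPKM, 1.10-fold lower (0.979 to 1.24), so no difference could be detected from these reads. Wipf1, which encodes the partner that stabilises WASP, was at 4.44 and 6.32 RPKM. WAVE family members Wasf1 and Wasf3 were listed at 0 in both libraries, and Wasf2 was at 3.01 and 2.10 RPKM. The WASH complex, which directs Arp2/3 to endosomes, with WHAMM and JMY, had 0 of 6 kept genes past 1.5-fold and a median of 0.42. Its largest log2 change was that of Washc1, at 5.39 and 8.32 RPKM. That list's median ran from 0.22 with a pseudocount of 5 to 0.47 with one of 0.1.

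Inhibitors and debranching factors of the complex were higher in 2 and lower in 0 of 9 kept genes, with a median of 0.44 that ranged from 0.28 after removal of the GC trend to 0.46 with a pseudocount of 0.1. Coro2a and Coro1b, of the coronin family that removes or remodels branches, were 2.22-fold (2.05 to 2.41) and 1.83-fold higher (1.72 to 1.95). Coro1a, the abundant coronin of blood cells, was at 408 and 510.5 RPKM. Gmfg, a debranching protein gene of blood cells, went the other way, at 273 and 210 RPKM, 1.30-fold lower (1.23 to 1.38). Arpin, which encodes a direct inhibitor of the complex, was at 0.426 and 0.124 RPKM and did not pass the filter.

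Upstream GTPases and adaptors were higher in 3 and lower in 1 of 14 kept genes (median 0.20). Grb2, an adaptor that links receptors to WASP proteins, was at 36.8 RPKM in Brpf1-null cells, 2.54-fold higher (2.35 to 2.75) than in wild-type cells. Trip10, a membrane-bending WASP partner, and Vav1, an exchange factor for Rac, were 2.44-fold (1.82 to 3.29) and 1.80-fold higher (1.67 to 1.95), and the adaptor gene Nck1 was 1.64-fold lower (1.39 to 1.94). The GTPases themselves lay within 1.5-fold: Rac2, the blood-cell form, was at 204 and 181 RPKM and Cdc42 at 119 and 120 RPKM.

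Other nucleators and the filament machinery were mixed. Formins and other nucleators, which build unbranched filaments, were higher in 2 and lower in 0 of 6 kept genes (median 0.21), with Fmnl1, the formin of blood cells, 1.90-fold higher (1.76 to 2.05) and Inf2 2.31-fold higher (1.88 to 2.84). That median was −0.0092 when low genes were kept and 0.87 when the minimum was raised to 5 RPKM. Actins and monomer-binding proteins had 1 higher and 1 lower of 11 genes and a median of −0.02, which was 0.15 after quantile normalization. Actb, the main actin gene, was at 4169 and 4122 RPKM. Twf2, a twinfilin gene, was 1.985-fold higher (1.84 to 2.14) and Dstn (destrin), which severs filaments, was at 44.2 and 25.2 RPKM, 1.76-fold lower (1.63 to 1.895). Capping, severing and crosslinking proteins were higher in 5 and lower in 1 of 16 genes (median 0.15). Vill had the largest log2 change of that list, at 8.32 and 17.15 RPKM. Capg, a capping protein gene, was at 46.6 and 90.6 RPKM, Flna (filamin A) at 11.7 and 23.4 RPKM, and Evl at 11.1 and 20.4 RPKM. The lower one was Capza1, of the main capping protein, at 108 and 71.6 RPKM.

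SRF and MRTF genes, which tie actin to transcription, had 1 higher and 0 lower of 10 genes, and their median of 0.09 turned to −0.02 after centring and −0.05 after the GC trend was taken out. Srf itself was at 2.685 and 5.41 RPKM, 2.01-fold higher (1.66 to 2.44). Among the other actin-related proteins, which belong to dynactin and chromatin remodellers and not to Arp2/3, 0 were higher and 1 lower of 7 kept genes. The lower one was Actr6, of a histone exchange complex, at 18.4 and 10.7 RPKM. Their median of −0.08 was 0.01 after removal of the GC trend.

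**Figure D4:**
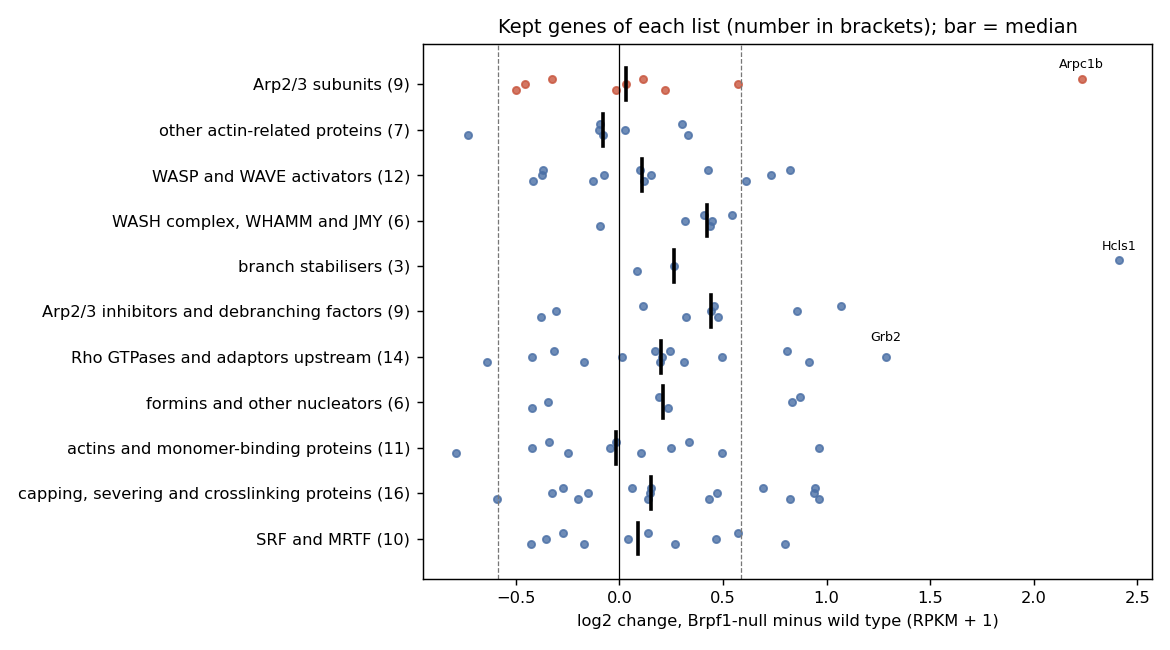
log2 change of each kept gene (points) in the Arp2/3 subunit list (red) and 10 related lists (blue), with the number of kept genes in brackets, the median as a black bar and 1.5-fold as dashed lines. Arpc1b (2.23) and Hcls1 (2.41) lie apart from all other genes shown.

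Defining genes of the sorted fraction were present, with Kit at 25.6 and 21.3 RPKM and Ly6a (Sca-1) at 10.6 and 9.51 RPKM. Of 8 such genes 1 was higher, Cd34 at 117 and 179 RPKM, and 3 were lower, the stem cell transcription factor genes Meis1, Mecom and Hlf, and the 8 summed to 237 and 269.5 RPKM. The libraries also differed in markers of other cells. Monocyte and macrophage markers were higher in 5 and lower in 2 of 10 kept genes, summing to 204 RPKM in wild-type and 309.6 RPKM in Brpf1-null cells. In that list Csf1r, the macrophage growth factor receptor gene, was at 8.31 and 28.8 RPKM, while Timd4, of resident macrophages, was at 2.60 and 0.496 RPKM. Lyz2, the most abundant gene of that list, was close to level, at 104.2 and 105.9 RPKM. Neutrophil markers were higher in 1 and lower in 6 of 10 (769 and 890.4 RPKM in sum, of which Mpo had 351 and 570.1 RPKM). T and NK markers had 1 higher and 0 lower of 2 kept genes (40.1 and 58.8 RPKM), with Cd3e and Gzmb listed at 0 in both libraries. Lower in the Brpf1-null library were all 11 kept hepatocyte markers (2078 and 543 RPKM in sum), all 8 kept erythroid markers (612 and 92.8 RPKM, with Hba-a1 listed at 0 in both) and all 7 kept B cell markers (269 and 83.4 RPKM), with Pax5 listed at 0 in both. Megakaryocyte markers were lower in 3 and higher in 0 of 5 (124 and 62.7 RPKM), and endothelial markers lower in 2 and higher in 1 of 6 (152 and 118 RPKM). These lists differed beside Arpc1b and Hcls1, and their part in those differences was not tested.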

How the data were processed

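RNA from sorted fetal liver LSK cells was sequenced from oligo-dT-primed libraries, per the labels' protocols. The submitters' processing notes name TopHat and mm9. Annotation, counting program, strand and filters: not given in the sources used here. Either pair has a table deposited by the authors, headed RPKM for pair 1 and FPKM for pair 2. A deposited fold (a ratio of wild-type to mutant) and its log2, by the authors, matched wild-type over mutant for all 12624 genes that had one, within a relative tolerance of 0.001, and were not used further. Symbols and values were identical between the tables (0 of 20207 differed in either genotype), so the values are called RPKM and count as 1 library per genotype. So no model was fitted.

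The 9380 genes whose mean reached 1 RPKM were kept. Log2 changes were computed with a pseudocount of 1 RPKM, so those of low genes are understated. Library sizes were those at which low RPKM values of genes with 1 transcript length came nearest to whole reads. At these sizes 57.4% and 61.4% of values lay within 0.1 read, against 22.7% and 24.4% at sizes raised by 5%. The method was tested on simulated data whose gene lengths were known exactly. The authors' lengths are not known, so that test cannot show how well the method works here. Reads per gene were estimated from the shortest RefSeq-linked transcript in GENCODE M21, or for Arpc1b its shorter coding transcript, so they are approximate. GC content was the median over RefSeq-linked transcripts where there were any, which for Arpc1b means the 3105-base form. Symbols matched for 98.1% of genes, directly or through RefSeq synonyms. That annotation is of GRCm38, so only names, lengths, GC content and gene order were used, and the promoters printed are from RefSeq on GRCm38.p6. Analyses used numpy 2.4.6, pandas 2.3.3, scipy 1.17.1, statsmodels 0.14.6 and biopython 1.88.

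The subunit genes and the gene lists were chosen with earlier results of these data known. All 9 subunits were named, with up to 4 genes of the largest absolute log2 change per list and the 5 genes nearest to Arpc1b. Some of the most abundant and defining markers, and neighbouring genes, were named too. Genes named outside that rule, such as Was, Wasf2, Nckap1, Gmfg, Coro1a, Arpin, Rac2, Cdc42, Actb and Capza1, were chosen after their values were seen. Alternatives were other pseudocounts, filters, centring, quantile normalization and removal of a GC trend.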

Additional observations from a re-analysis of the deposited data

How the results depend on the processing

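Arpc1b kept its direction and its place past 1.5-fold under all 5 alternatives tried: its log2 change was 2.18 with a pseudocount of 5, 2.12 after centring, 2.31 after quantile normalization and 2.17 with the GC trend removed, against 2.23. The median over the subunit genes was −0.078 after centring, 0.10 after quantile normalization and 0.15 with the GC trend removed. Subunit genes past 1.5-fold were 1 on the lower side after centring and 2 on the higher side after quantile normalization. The cause of these shifts was not tested, other than that centring moves every gene by −0.11. Signs changed for Arpc2 after centring and for Actr3 after quantile normalization and removal of the GC trend. Counted as estimated reads and not per length, Arpc1b was 67.3% and 89.3% of its pair, and Arpc5l 21.4% and 23.5% of its pair, in wild-type and Brpf1-null. The Arpc1b shares hold for its 1394-base form. Its 3105-base form, at about 6600 and 29000 reads, would make both shares larger. Over all genes, 554 were higher and 393 lower with a pseudocount of 5, and 793 and 483 when the minimum mean was 5 RPKM, where fewer genes were tested, against 1323 and 884. Centring turned that split to 961 higher and 1204 lower. No paired analysis was possible because the tables of the 2 pairs held the same values, and for the same reason no replicate could be left out.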

Other observations

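The genes next to the subunit genes on their chromosomes, the nearest 2 protein-coding genes of the table on each side, gave 21 kept genes that are not themselves subunits. Their median log2 change was 0.22, and 2 were lower by 1.5-fold. Anapc7, of the anaphase-promoting complex beside Arpc3, was higher, at 5.45 and 8.76 RPKM. The lower ones were Meis1, a stem cell transcription factor gene 2 places from Actr2, at 44.2 and 17.0 RPKM, and Rgl1, a Ral exchange factor gene 2 places from Arpc5, at 3.19 and 1.23 RPKM. These genes were named after their values were seen.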
